A study of Danio rerio with 4 samples.

Results

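The genes described here encode solute carriers that move ions, metals, lipids, nucleotide sugars, vitamins and organic anions or cations across membranes. They were chosen by gene symbol: every symbol that begins with slc or slco and a family number, without 12 families of sugar, amino acid, monocarboxylate and mitochondrial carriers and without slc40a1. This gave 114 of the 11021 genes in the deposited table, from 32 families. The rule itself uses no measured value, but the set was proposed with earlier results of these data known. The values come from larval zebrafish livers, taken 5 days after fertilisation and measured by sequencing polyadenylated RNA. The group described carries Tg(fabp10:has.UHRF1-GFP) and is labelled high. Its transgene expresses human UHRF1, a regulator of DNA methylation, fused to GFP. Both of its libraries, A and B, were analysed. The control group carries Tg(fabp10:nls-mCherry), a nuclear red fluorescent protein under the same promoter, and its 2 libraries were not analysed here. No value below can therefore be read as a change caused by UHRF1. The fabp10 promoter is a hepatocyte promoter, and the tissue sampled is liver, which also holds biliary, endothelial and blood cells. The labels do not say how many larvae were pooled for a library or if the libraries were made from different clutches.

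Solute carriers are membrane proteins that use gradients of other solutes or exchange one solute for another. In hepatocytes they take up and release bile acids, phosphate, fatty acids, vitamins and drugs, and they supply the endoplasmic reticulum (ER) and Golgi with zinc, nucleotide sugars and glucose 6-phosphate. Some work as pairs of subunits, and many have 2 copies in zebrafish, named a and b, that stem from the whole-genome duplication of teleost fish.

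The authors deposited quantile-normalised values. This step forces the libraries onto a shared distribution, and what remains in a value is the place of the gene in its library. Sequencing depth is unknown. No source says if the values are per length of transcript, so values of different genes may differ through length alone; A and B can be compared gene by gene without that concern. The libraries differed in markers of several cell types, hepatocytes included. The 9 exocrine pancreas markers in the table were all at least 2-fold higher in A, with a summed value of 10466 in A and 1202 in B. The 9 skeletal muscle markers were all at least 2-fold higher in B, with sums of 299 in A and 3495 in B. Leukocyte markers (4 of 4; sums of 20.2 in A and 81.4 in B) and biliary markers (4 of 4; 1034 and 2561) were also at least 2-fold higher in B. Skin and ionocyte markers were higher in B for 8 of 9, with sums of 199 in A and 437 in B. Erythrocyte markers summed to 1435 in A and 2333 in B, and 4 of the 7 with a mean of at least 1 were higher in B. Of 3 endocrine pancreas markers, the insulin gene had 46.8 in A and 0.609 in B. Of the 6 hepatocyte markers, fabp10a, apoa1b and apoa2 had identical values in both libraries. After quantile normalisation this shows the same place in each library, not the same amount of RNA. These 3 make up most of the list's sum, 252878 in A and 238979 in B. The other 3 were higher in A. For 2 of these the gap exceeded 2-fold: the transferrin gene tfa had 12758 in A and 2207 in B, and the alpha-1-antitrypsin gene serpina1 4796 and 1567. Of 7 intestine markers, 3 had a mean of at least 1, and their directions differed: apoa4 had 2588 in A and 1273 in B, and fabp2 115 and 151. The intestine list summed to 2706 in A and 1426 in B, and apoa4 alone made up most of both sums. Endothelium markers summed to 18.5 in A and 20.4 in B, and pronephros (kidney) markers to 51.6 and 83.2. The part of these cells in the differences between A and B given below was not tested, and in bulk samples fewer cells of a type and less RNA per cell cannot be told apart.

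**Figure D1:**
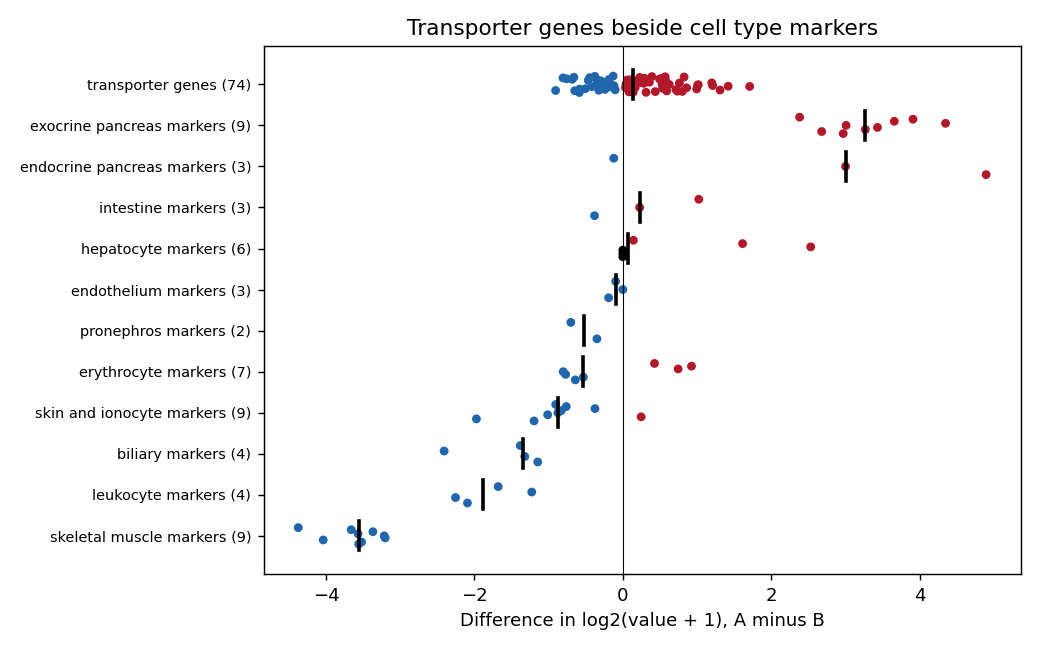
Difference between the libraries in log2(value + 1), A minus B, for the 74 transporter genes and for the markers of each cell type that have a mean value of at least 1; each point is 1 gene (red higher in A, blue higher in B, black identical) and the black bar is the median. The transporter genes lie near 0, with a median of 0.13, while exocrine pancreas markers lie at a median of 3.27 and skeletal muscle markers at -3.56.

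Most transporter genes had low to intermediate values. Their median was 3.22 in A and 3.05 in B, at percentile 43.6 and 42.8 of all genes. A mean of at least 1 over A and B was reached by 74 of the 114 (64.9%), against 76.1% of all genes. A mean of at least 10 was reached by 35 (30.7%), against 33.9% of all genes, and a mean of at least 100 by 4 (3.51%), against 6.83%. The summed value of the 114 genes was 2033 in A and 1962 in B, which is 0.236% and 0.228% of the table's sum. It was concentrated in a few genes: the 5 highest held 53.2% of it in A and 59.0% in B.

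Means of 100 or more were those of slc51a, slc37a4a, slc22a18 and slc11a2. These 4 genes encode the alpha subunit of the organic solute transporter of bile acids, the glucose 6-phosphate transporter of the ER, a putative organic cation transporter and the divalent metal transporter that carries iron. The highest, slc51a (chromosome 24, 25569818 to 25590925, Zv9), had 373 in A and 561 in B. Next came slc37a4a (chromosome 15, 9438516 to 9456279) with 317 in A and 255 in B. The values of slc22a18 (chromosome 7, 40930516 to 40944675) were 149 in A and 136 in B. Those of slc11a2 (chromosome 11, 267492 to 283038) were 137 in A and 130 in B. These genes kept the same first 4 places among the transporters in both libraries. The order of A and B was not the same for all 4: slc51a was higher in B, the other 3 in A.

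**Figure D2:**
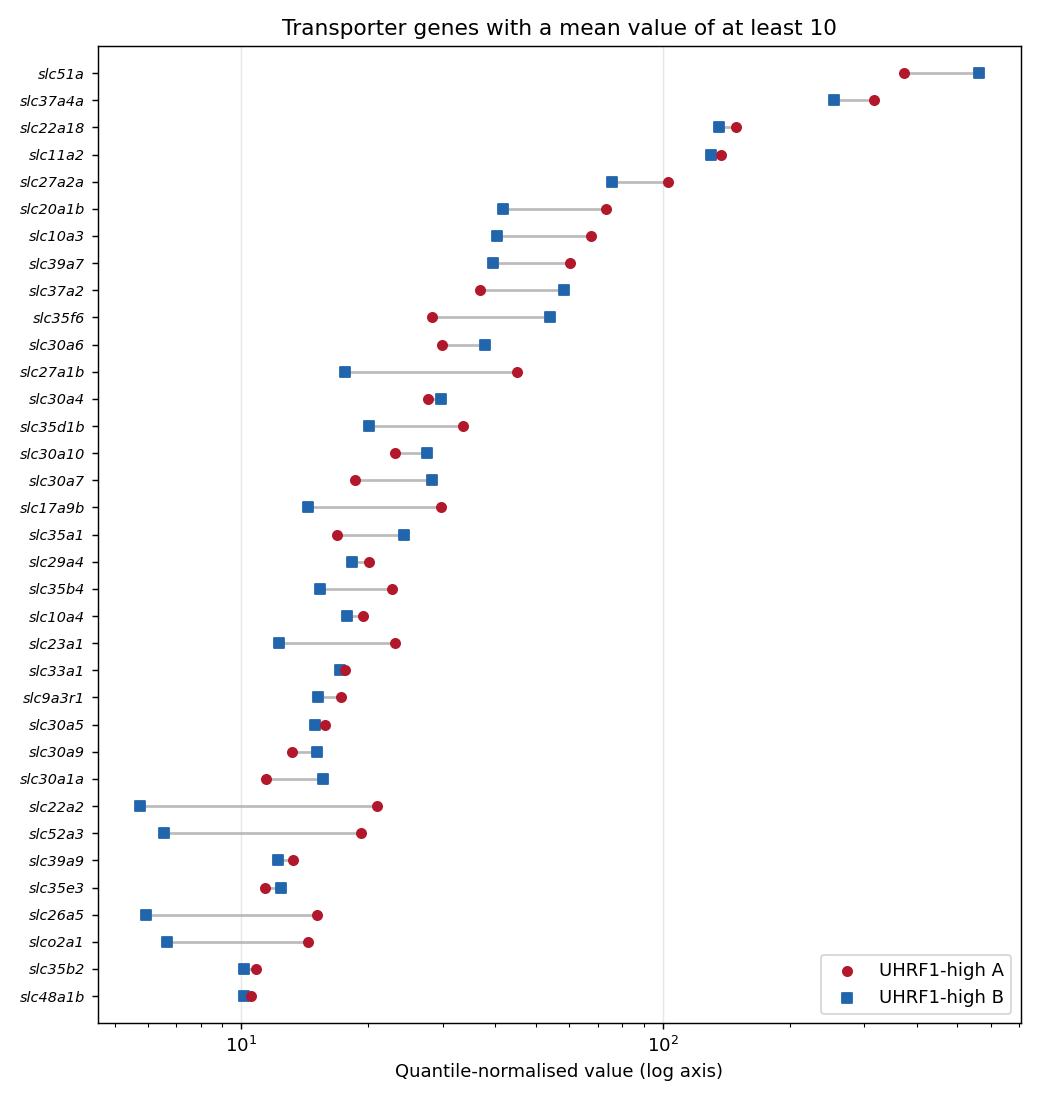
Quantile-normalised values (log axis) of the 35 transporter genes with a mean of at least 10, ordered by mean; red circles are library A, blue squares library B, and a grey line joins the values of 1 gene. The values of slc51a are 373 in A and 561 in B, and the widest gaps are those of slc22a2, slc52a3, slc27a1b, slc26a5 and slco2a1, all higher in A.

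Differences between the libraries are given on log2(value + 1), A minus B, for the 74 genes whose mean was at least 1, and a gene is called at least 2-fold higher where this difference is 1 or more. Each side is 1 library, so no p-value applies. Of the 74 transporter genes, 7 (9.46%) were at least 2-fold higher in A, against 7.07% of all 8386 genes above the same minimum. None was at least 2-fold higher in B, against 6.83% of all genes. The other 67 (90.5%) were under 2-fold apart, as were 86.1% of all genes. In direction, 49 of 74 (66.2%) were higher in A and 25 in B, while 48.6% of all genes were higher in A. Other transporter genes also leaned to A: 71.4% of mitochondrial slc25 carriers, 62.5% of ABC transporters and 59.0% of sugar, amino acid and monocarboxylate carriers. The median was 0.13 for the 74 genes and -0.015 for all genes. The share at least 2-fold higher in A lies near that of all genes.

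The 7 genes at least 2-fold higher in A fall into 7 different role groups. They are slc22a2, an organic cation transporter; slc52a3, a riboflavin transporter; slc27a1b, a fatty acid transport protein; slc26a5, the gene of prestin, an anion transporter relative; slc13a5, a sodium-citrate cotransporter; slc31a1, the copper importer; and slco2a1, the prostaglandin transporter. Their differences ran from 1.71 for slc22a2 to 1.01 for slco2a1. The gene just outside the threshold was slc17a9b, a vesicular nucleotide transporter, at 0.99, and those just inside were slco2a1 at 1.01 and slc31a1 at 1.02. Towards B the largest differences were those of slc35f6 at -0.91, slc35f2 at -0.81, slc13a2 at -0.76, slc4a2b at -0.68, slc29a2 at -0.66 and slc37a2 at -0.65. With a pseudocount of 0.1 in place of 1, 9 genes were at least 2-fold higher in A, with slc17a9b and slc48a1a added. At that setting slc13a2, slc35f2 and slc29a2 were at least 2-fold higher in B. With a pseudocount of 10, no gene passed in either direction. The values of these genes are given below with their role groups.

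**Figure D3:**
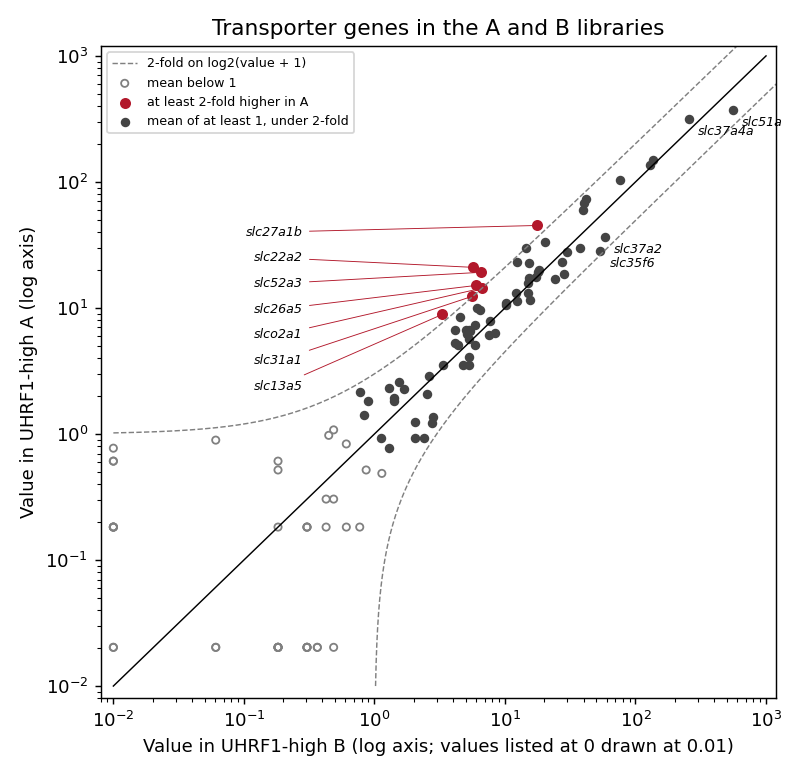
Values of the 114 transporter genes in library A (vertical) against library B (horizontal), both on log axes; filled points have a mean of at least 1, open points a lower mean, and dashed lines mark 2-fold on log2(value + 1). The 7 red points are at least 2-fold higher in A and no point lies beyond the lower dashed line; the stacks of open points at the lower left are tied low values.

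Bile acid and organic anion transporters were led by slc51a. Hepatocytes take up bile acids through carriers of the slc10 and slco families, and the organic solute transporter, of which slc51a encodes 1 subunit, passes them out across the basolateral membrane in mammalian intestine and liver. The group held 7 genes, of which 5 had a mean of at least 1. The orphan family member slc10a3 (chromosome 25, 38450547 to 38453037) had 67.7 in A and 40.3 in B (mean 54.0 ± 19.3, SD, n = 2). Another orphan member, slc10a4, which in mammals is known from synaptic vesicles of neurons, had 19.4 in A and 17.8 in B. The neuron marker snap25a, the 1 of 4 listed neuron markers in the table, had 0.772 in A and 0.304 in B. The span of slc10a4 lies within that given for pdgfra, which had 0.487 in A and 0.630 in B.

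The slco genes, which encode organic anion transporting polypeptides, lay lower. The prostaglandin transporter gene slco2a1 (chromosome 6, 27332240 to 27373513) had 14.4 in A and 6.65 in B. The other member above a mean of 1, slco2b1, an uptake carrier for sulfated steroids and drugs, went the other way with 3.55 in A and 5.28 in B. The values of slco1c1, a thyroid hormone and organic anion carrier, were 0.183 in A and 0 in B, and those of slco3a1 were 0.0203 and 0.304. The median difference of the 5 genes above a mean of 1 was 0.12, with 3 higher in A and 2 higher in B.

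Among organic ion exchangers, slc22a18 and slc22a2 were the 2 of 6 above the minimum mean of 1. The organic cation transporter gene slc22a2 (chromosome 20, 42700602 to 42720230) had 21.0 in A and 5.73 in B, a ratio of 3.66 and the largest difference of any transporter gene. Its span shares 42 bases with that of the plasminogen gene plg, which had 796 in A and 793 in B. The other 4 genes had values below 1 in both libraries. They are slc47a1 and slc47a2, which encode multidrug and toxin extrusion proteins, slc22a7b and slc22a4. The highest single value among them was 0.894, for slc47a2 in A.

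The phosphate and sugar-phosphate group was set by family number, so it also holds the slc17 family and the antisense transcript slc34a2aas. Of its 13 symbols, 8 had a mean of at least 1, 6 of them higher in A. Among these 6 are 2 slc17 genes. The glucose 6-phosphate transporter slc37a4a, which feeds the last step of gluconeogenesis in the ER, differed by 0.31. The sugar-phosphate exchanger gene slc37a2 (chromosome 5, 59922072 to 59948919), known in zebrafish from macrophages and microglia, had 36.9 in A and 58.3 in B. The leukocyte markers, with sums of 20.2 in A and 81.4 in B, were also higher in B. The part of leukocytes in the slc37a2 value was not tested. The sodium-phosphate cotransporter gene slc20a1b (chromosome 10, 17745054 to 17758386) went the other way, with 73.4 in A and 41.7 in B.

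The vesicular nucleotide transporter gene slc17a9b had 29.7 in A and 14.4 in B, a ratio of 2.06. In mammals its product loads ATP into secretory granules, among them the zymogen granules of exocrine pancreas. Exocrine pancreas markers were higher in A (sums of 10466 in A and 1202 in B), and their part in the slc17a9b value was not tested. The lysosomal sialic acid exporter gene slc17a5 had 6.16 in A and 5.13 in B. The remaining phosphate carriers above a mean of 1 were lower. They were slc20a1a at 3.55 in A and 4.77 in B, slc20a2 at 2.26 and 1.69, and slc34a2b at 2.32 and 1.30.

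Fatty acid transport proteins couple uptake of fatty acids to their activation with coenzyme A. Of the 6 genes for fatty acid and acetyl-CoA transport, 4 had a mean of at least 1 and 3 of these were higher in A. The gene slc27a2a (chromosome 18, 232040 to 242948), whose mammalian counterpart is a very long-chain acyl-CoA synthetase of liver, had 103 in A and 75.8 in B. Its span shares 465 bases with that of the histidine decarboxylase gene hdc, which had 110.2 in A and 65.1 in B. Reads from the shared stretch could be counted for either gene. The gene slc27a1b (chromosome 1, 59228242 to 59245098) had 45.1 in A and 17.6 in B, a ratio of 2.56. The ER acetyl-CoA transporter gene slc33a1 hardly differed, with 17.6 in A and 17.2 in B. Values of slc27a4 and slc27a6 were at most 0.304.

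Genes for copper, iron and heme transport all had a mean of at least 1, and all 5 were higher in A; the median difference was 0.36. Only slc31a1 passed 2-fold on log2(value + 1). Without a pseudocount the ratio of A to B was 2.20 for slc31a1 and 2.77 for slc48a1a, whose values are low. Iron enters the cytosol from endosomes through slc11a2, the gene mutated in the zebrafish anaemia line chardonnay. The values of slc11a2 in A and B had a mean of 134 ± 5.47 (SD, n = 2). The copper importer gene slc31a1 (chromosome 5, 58779989 to 58797233) had 12.4 in A and 5.61 in B. Its relative slc31a2 had 6.71 in A and 5.02 in B. The heme transporter genes of lysosomes, slc48a1b and slc48a1a, had 10.5 and 2.14 in A, and 10.1 and 0.772 in B.

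Zinc transporters were one of the larger groups, with 14 of 16 genes above a mean of 1 and none 2-fold apart; the median difference was -0.21. The slc30 family moves zinc out of the cytosol, into organelles or out of the cell, and the slc39 family moves it into the cytosol. Of the 7 slc30 genes above a mean of 1, 6 were higher in B (median -0.24). Of the 7 slc39 genes, 3 were higher in B and 4 in A, with a median of 0.11. Among genes of the slc30 family, slc30a6 had the highest values, 30.0 in A and 37.8 in B. Its product pairs with that of slc30a5 in the Golgi of vertebrate cells, and slc30a5 had 15.8 in A and 14.9 in B. Another Golgi member, slc30a7, had 18.6 in A and 28.3 in B, the largest difference towards B in the zinc group at -0.58.

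The manganese exporter gene slc30a10 (chromosome 13, 53633563 to 53641056), which in humans clears manganese through liver and bile, had 23.1 in A and 27.5 in B. The vesicular transporter gene slc30a4 had 27.7 in A and 29.8 in B, and the mitochondrial member slc30a9 had 13.2 and 15.1. The exporter gene of the plasma membrane, slc30a1a, had 11.5 in A and 15.6 in B. In the slc39 family slc39a7, whose product releases zinc from the ER, was highest with 60.1 in A and 39.5 in B. The other slc39 genes above a mean of 1 ranged from 12.7 for slc39a9 to 1.04 for slc39a10 in mean value. The intestinal zinc importer gene slc39a4 had 0.772 in A, while B lists it at 0.

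Nucleotide-sugar transporters of the slc35 family bring activated sugars and sulfate donors into the ER and Golgi, where secreted proteins are glycosylated. The group was set by family number and also holds slc35 members with other or unknown substrates, such as slc35b1 and slc35f6. It was the group with the most genes: 17, of which 15 had a mean of at least 1, 9 higher in A and 6 in B. None was 2-fold apart, and the median was 0.090. The orphan member slc35f6 (chromosome 20, 25933837 to 25940013) had the highest mean, with 28.3 in A and 53.8 in B. The transporter gene for UDP-glucuronic acid and UDP-N-acetylgalactosamine, slc35d1b (chromosome 2, 5436255 to 5452709), had 33.6 in A and 20.1 in B. The CMP-sialic acid transporter gene slc35a1 had 16.8 in A and 24.3 in B. These carriers therefore differed between A and B in opposite directions.

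The remaining slc35 genes differed in either direction. The PAPS (sulfate donor) transporter genes slc35b2 and slc35b3 had 10.9 and 6.12 in A, and 10.1 and 7.50 in B. The GDP-fucose transporter gene slc35c1 had 7.38 in A and 5.89 in B. The gene slc35b1, whose mammalian counterpart exchanges ATP and ADP across the ER membrane, had 5.65 in A and 5.34 in B. The UDP-xylose and UDP-N-acetylglucosamine transporter gene slc35b4 had 22.8 in A and 15.4 in B. The lowest of the 15 was slc35f2 with 0.935 in A and 2.38 in B, and slc35d1a and slc35e4 lay below a mean of 1.

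Exchangers of protons, bicarbonate, chloride and sulfate had lower values. Of 7 slc9 symbols, 5 had a mean of at least 1, and all 5 were higher in A, by 0.059 to 0.49. The highest of them, slc9a3r1, with 17.2 in A and 15.2 in B, is named for a transporter but encodes a scaffold protein (now nherf1a) that holds transporters at the apical membrane. The endosomal and Golgi sodium-proton exchanger genes slc9a6a and slc9a8 had 3.55 and 2.88 in A, and 3.36 and 2.60 in B. Of 12 genes for bicarbonate, chloride and sulfate exchange, 5 had a mean of at least 1. The prestin gene slc26a5 (chromosome 4, 13997930 to 14019449), known in mammals as the motor protein of outer hair cells, was highest with 15.1 in A and 5.95 in B.

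The anion exchanger gene of erythrocytes, slc4a1a (band 3; chromosome 3, 19955148 to 19981270), had 9.70 in A and 6.42 in B. Erythrocyte markers summed to 1435 in A and 2333 in B, the opposite order. Among those markers with a mean of at least 1, 3 were higher in A, like slc4a1a. They are the heme synthesis gene alas2 (8.67 in A, 4.77 in B), epb41b (2.36 and 0.772) and nt5c2l1 (2.59 and 1.67). The 4 higher in B were all globin genes, such as hbae3 with 663 in A and 1035 in B. The part of erythrocytes in the slc4a1a value was not tested. The more widely expressed anion exchanger slc4a2a had 7.89 in A and 7.63 in B. Of the 4 cation-chloride cotransporter genes, slc12a9 had 6.66 in A and 4.12 in B, and the other 3, slc12a2 among them, lay below 1 in both libraries. The sodium-calcium exchanger genes slc8a1a and slc8a1b were at most 0.183 in either library.

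The sodium-citrate cotransporter gene slc13a5 (chromosome 21, 38890529 to 38919761), which in mammals brings citrate into hepatocytes, had 8.88 in A and 3.30 in B, a ratio of 2.69. Its relative slc13a2 went the other way (1.22 in A, 2.75 in B). Of the vitamin transporters, all 4 had a mean of at least 1 and 3 were higher in A. The riboflavin transporter gene slc52a3 (chromosome 8, 29321018 to 29329656) had 19.2 in A and 6.55 in B, a ratio of 2.93. The vitamin C transporter gene slc23a1 (chromosome 21, 28835469 to 28855225) had 23.1 in A and 12.3 in B. The second riboflavin transporter gene, slc52a2, had 2.08 and 2.51, and the folate transporter gene slc46a1 had a mean of 1.61 ± 0.289 (SD, n = 2). Of the nucleoside carriers, slc29a4, a monoamine transporter of the plasma membrane in mammals, had 20.1 in A and 18.3 in B, while slc29a2 had 0.935 and 2.06.

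**Figure D4:**
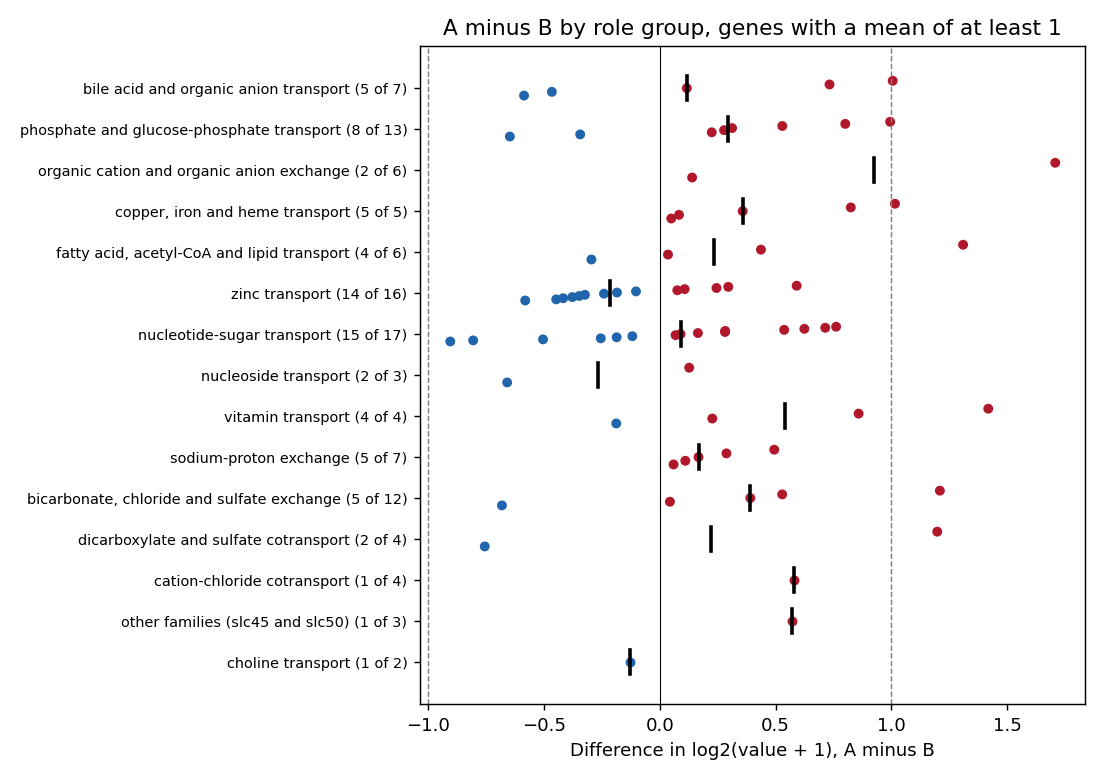
Difference in log2(value + 1), A minus B, of the transporter genes with a mean of at least 1, by role group; numbers in brackets give genes above that minimum of all genes in the group, black bars the group medians and dashed lines 2-fold. Groups with 4 or more genes above the minimum mean have medians between -0.21 (zinc) and 0.54 (vitamins), and the 7 genes past 2-fold lie in 7 groups.

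The 40 transporter genes below a mean of 1 sat at a few tied values, 11 distinct values in A and 13 in B. At the lowest value of A, 0.0203, were 16 of the 114 (14.0%), against 6.30% of all genes. In B, 9 (7.89%) were listed at 0, against 4.07% of all genes. Both conditions held for slc13a1, a sulfate cotransporter, and slc34a2aas, an antisense transcript of a phosphate cotransporter gene. No fold is given for these genes. The choline transporter-like gene slc44a5b had 0.935 in A and 1.12 in B, and slc44a4 had 0.183 in A and 0 in B. The vesicular monoamine transporter gene slc18a2 had 0.304 and 0.487, and the melanosome gene slc45a2 had 0.487 and 1.14. The sugar carrier gene slc50a1, just above the minimum, had 1.81 in A and 0.894 in B.

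For 11 gene pairs, named with the same symbol and a final a or b, both copies were in the table, each time on different chromosomes. In 10 of them the same copy was higher in both libraries. The exception, slc8a1, had both copies at or under 0.183. In 4 pairs both copies had a mean of at least 1. For slc20a1, copy b had 73.4 in A and 41.7 in B, and copy a had 3.55 and 4.77. For slc27a1, copy b had 45.1 and 17.6, and copy a 4.12 and 5.28. In both of these pairs the higher copy was higher in A and the lower copy higher in B.

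The anion exchanger pair slc4a2 had copy a at 7.89 in A and 7.63 in B and copy b at 1.36 and 2.79. For the heme transporter slc48a1, copy b had 10.5 and 10.1 and copy a 2.14 and 0.772. In other pairs only 1 copy reached a mean of 1. The glucose 6-phosphate transporter had 317 in A and 255 in B for slc37a4a, and 0.0203 and 0.304 for slc37a4b. The zinc exporter had 11.5 and 15.6 for slc30a1a, and 0.518 and 0.183 for slc30a1b. Band 3 had 9.70 and 6.42 for slc4a1a, and 0.0203 and 0.365 for slc4a1b. Transcript length can enter these comparisons between copies, and how the authors counted reads that match both copies is not stated.

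**Figure D5:**
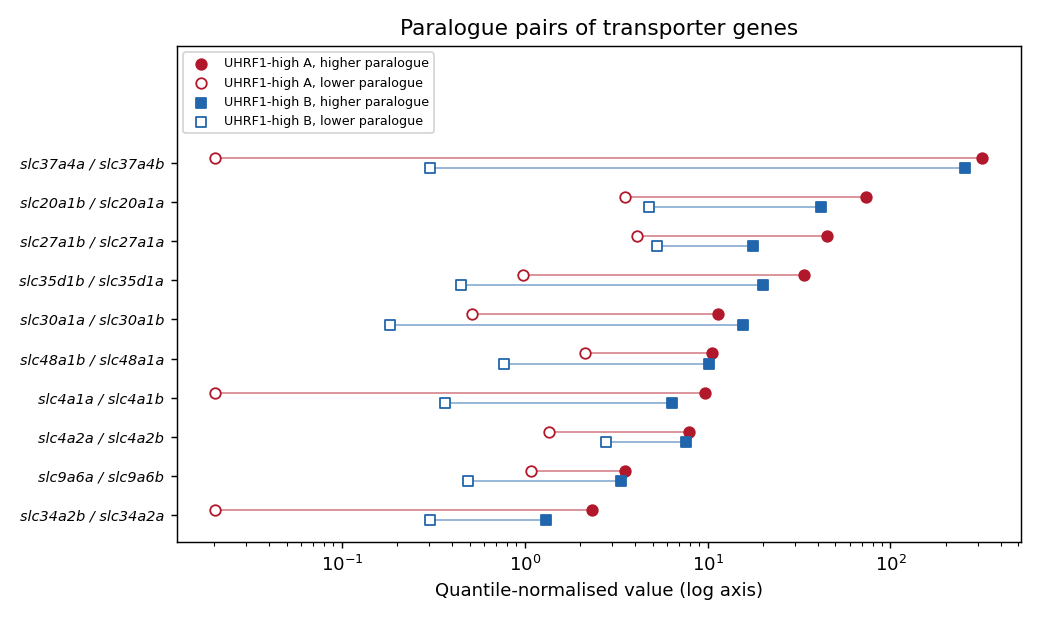
Quantile-normalised values (log axis) of both copies of 10 paralogue pairs of transporter genes; filled symbols are the higher copy, open symbols the lower, circles library A and squares library B. The filled symbol lies to the right of the open one in every pair and library drawn; the pair slc8a1, with both copies at or under 0.183, is not drawn.

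In the genome the transporter genes lay on all 25 chromosomes. Chromosome 21 held 12 of the 114 (10.5%), against 431 of 11021 genes in the table (3.91%); it was singled out after its count was seen. On it slc47a1, slc47a2, slc13a5 and slco2b1 were each other's nearest transporter genes between 38778228 and 39011066, with gaps of 18328, 38713 and 57178 bases. Neighbours there differed in level: slc47a1 and slc47a2 lay below 1 in both libraries, while slc13a5 had 8.88 in A and 3.30 in B. The median span of the transporter genes was 19116 bases, against 13526 for all genes. The spans of slc37a1, slc12a2 and slc14a2 exceeded 400000 bases in the table, as did those of 72 genes in all. Leaving out such spans, 9 transporter genes overlapped another gene of the table, 6 of them with a mean of at least 1. One of the 9 is slc34a2a, which lies within the span of its antisense transcript slc34a2aas. Whether counting used strand is not stated, so how reads of the shared stretch were assigned is unknown. In B slc34a2a had 0.304 and slc34a2aas 0.

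Other genes of the same processes were measured beside the carriers. Sodium and calcium pumps supply the gradients that many carriers use. Of 11 such genes with a mean of at least 1, 4 were higher in A and 7 in B, 3 of the 7 at least 2-fold; the median was -0.25. The sodium pump subunit genes atp1a1a.1 (136 in A, 141 in B) and atp1b1a (382 and 367) varied little. A lower one, atp1b3b (1.26 and 4.52), was among the 3 at least 2-fold higher in B. The calcium pump genes atp2a1 (2.75 and 76.7) and atp2a1l (1.55 and 39.1) are muscle genes. The median difference of skeletal muscle markers, with atp2a1 itself among them, was -3.56. Another calcium pump gene of the ER, atp2a2b, had 26.8 in A and 15.8 in B.

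Of 10 zinc and copper handling genes with a mean of at least 1, none was 2-fold apart, with 7 higher in A and a median of 0.14. The metallothionein gene mt2 had 248 in A and 231 in B, the copper chaperone gene atox1 129 and 170, the superoxide dismutase gene sod1 912 and 1108, and the ceruloplasmin gene cp 34.1 and 63.8. Lower genes were higher in A: commd1 had 23.9 in A and 17.0 in B, cox17 18.2 and 13.4, and steap4 12.2 and 11.8. Of 20 genes listed for bile acid synthesis, conjugation and its receptors, 8 had values. Of these 8, 4 were at least 2-fold higher in A and 1, nr0b2a of the nuclear receptor family, at least 2-fold higher in B. The values of nr0b2a were 0.183 in A, a tied low value, and 3.08 in B. The median was 0.90. Among the 4 is the symbol c1qtnf3 (13.6 in A, 5.21 in B), which was taken as amacr through a match of older gene names. That match rests on names only, and the counts and the median include it. The bile acid receptor gene nr1h4 had 30.6 in A and 20.5 in B, the synthesis enzyme gene hsd3b7 166 and 207, the sterol carrier protein gene scp2a 349 and 137, and zgc:92406, an older name of cyp8b1.1, 65.0 and 16.1.

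Chloride channels and carbonic anhydrases, which work with the bicarbonate exchangers, had 11 genes above a mean of 1, of which 3 were at least 2-fold higher in A and 1 in B. The carbonic anhydrase genes ca5 (45.3 in A, 9.45 in B), ca2 (40.6 and 16.5) and cahz (22.1 and 7.22) were the 3 higher in A, and the gene clic2 (18.2 and 39.4) was the 1 higher in B. The genes clic1 (9.96 and 12.5), clic4 (8.83 and 14.8) and clic5b (59.6 and 53.4) stayed under 2-fold. Of 9 genes for sorting and anchoring of transporters, 1 passed 2-fold, the kinase gene sgk1 with 262 in A and 125 in B. Their median was 0.055. The carrier chaperone gene bsg had 212 in A and 204 in B, and the membrane linker genes ezra and msna had 20.6 and 8.18 in A and 19.2 and 17.2 in B.

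Beside other transporter genes, the ion, metal, lipid and organic anion carriers had a smaller share of genes past 2-fold (9.46% in A, none in B) than the sugar, amino acid and monocarboxylate carriers. Of the 39 genes of those families above a mean of 1 (64 in the table), 11 (28.2%) were at least 2-fold higher in A and 4 (10.3%) in B. Of 35 mitochondrial slc25 carriers, 5 passed 2-fold towards A and 2 towards B, and of 16 ABC transporters, 1 towards A and none towards B. The median absolute difference was 0.37 for the ion, metal, lipid and organic anion carriers, 0.74 for the sugar and amino acid carriers, 0.47 for slc25 genes and 0.26 for ABC transporters. No test of these differences was made, since each side is 1 library and genes are not replicates.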

How the data were processed

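Trizol RNA was selected on poly-A beads, fragmented and ligated to bar-coded adapters, per the labels' protocols. The deposited signal values are the authors' quantile-normalised values, going by the table's name. CASAVA 1.7 and the build Zv9 (danRer7) are named per the submitters' processing notes. How reads were counted, with which annotation and gene filter, is not given in the sources used here; depth is unknown. The table's 2 value columns were matched by name to the sample titles; 0 other per-sample columns were left unused. The design text speaks of small RNA, the sample labels of poly-A RNA.

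Values were analysed with Python 3.11.15, pandas 2.3.3 and numpy 2.4.6. Differences used log2(value + 1) and genes with a mean of at least 1. Alternatives were pseudocounts of 0.1 and 10, no minimum, a minimum of 10, median scaling and leaving out the scaffold gene. Counting was run on simulated data with known shifts and no noise, which checks the code only. Starts were counted from 1 (3 starts are 0 in the table). Of 114 symbols, 103 are current in RefSeq's GRCz12tu gene table, 10 were matched through older symbols and 1 was not matched; names only were used.

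The members, role groups, gene lists and markers were chosen with earlier results of these data known. Genes named were drawn from the 3 highest of each role group, the 15 highest of all and the 12 largest differences in each direction. Paralogue pairs and listed pathway genes with a mean of at least 10 were also drawn on. Some genes that meet these rules are not named above. Others, such as the neighbours of a named gene, were named after their values were seen.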

Additional observations from a re-analysis of the deposited data

How the results depend on the processing

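The median difference of the transporter genes was 0.13 and ranged over the 6 alternatives from 0.067 with a pseudocount of 10 to 0.15 with median scaling. Another pseudocount cannot change the sign of a gene's difference, so it is no check of direction; without a minimum the median was 0.072 and with a minimum of 10 it was 0.12. The number at least 2-fold higher in A was 7; it was 0 with a pseudocount of 10 and otherwise between 5 and 9. The number at least 2-fold higher in B was 0 and was 3 with a pseudocount of 0.1. These counts depend on the pseudocount because a larger one shrinks the differences of low values; among all genes the counts with a pseudocount of 10 were 188 towards A and 134 towards B, in place of 593 and 573. The median percentile of the transporter genes was 43.01 over both libraries, between 42.8 and 43.6 in single libraries and 40.8 without slc9a3r1. For the 74 transporter genes above the minimum of 1, ranked only against genes above it, the median percentile was 49.9. That value leaves out the 40 transporter genes below the minimum. No paired analysis was made, since the labels do not pair A or B with a control library and the controls were not analysed here. With depth unknown, values below 1 are a few tied steps whose differences cannot be weighed against counting error.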
